A study of Mus musculus with 11 samples.

Results

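The nuclear oxidative phosphorylation genes mainly encode the nuclear subunits of the respiratory chain (complexes I to IV) and of ATP synthase (complex V). They were taken as every symbol of the 10x gene list that begins with Ndufa, Ndufb, Ndufc, Ndufs, Ndufv, Sdh, Uqcr, Cox4, Cox5, Cox6, Cox7, Cox8 or Atp5. Of 96 such symbols, 11 assembly factors (7 Ndufaf and 4 Sdhaf genes) were left out, and 79 of the remaining 85 reached a level of 10 counts-per-million of UMIs (CPM) in at least 1 library. These 79 of the 27998 listed genes were assigned to complexes by their symbols alone. They comprised 38 of complex I, 4 of complex II, 8 of complex III, 13 of complex IV and 16 of complex V. Below the level were Cox6a2, Cox7a1, Cox7b2, Cox8b, Cox8c and Atp5s, of which Cox8b (7.4 CPM) and Atp5s (7.0 CPM) came closest, and Atp5sl (11.4 CPM) lay just inside it.

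Respiratory complexes pass electrons from NADH and succinate to oxygen and pump protons across the inner mitochondrial membrane, and ATP synthase uses the gradient to make ATP. A few subunits are still encoded in the mitochondrial genome, so each complex other than complex II joins products of both genomes. Some nuclear subunits have alternative isoforms. Cox4i2 can replace Cox4i1 in cytochrome c oxidase, and Ndufa4l2, a paralog of Ndufa4, is a known target of hypoxia-inducible factor. Ndufa4 was first assigned to complex I and was later found with complex IV. Here it is counted by its symbol. Atp5sl is likewise counted with complex V by its symbol alone, which does not show that it encodes a subunit of ATP synthase.

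The cells were GFP+ mesenchymal cells sorted from livers of Pdgfrb-BAC-eGFP reporter mice, 10 to 16 week old males on a C57BL/6 background, in which GFP follows the Pdgfrb promoter. Droplet (10x) libraries, each pooled from 3 mice, came from uninjured mice, mice 72 h after a single dose of carbon tetrachloride (CCl4) and mice given CCl4 for 6 weeks, all prepared by the HSC isolation. Uninjured mice and mice given CCl4 for 6 weeks were also prepared by the PF isolation. Smart-seq2 plates held PF isolation cells of uninjured mice, mice 14 days after bile duct ligation (BDL) and mice given CCl4 for 6 weeks, and plate 6 also held uninjured cells of the HSC isolation.

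After filtering, the 10x libraries held 5454 to 7310 cells and 25962955 to 86661230 UMIs each. Between 33 and 74 barcodes were shared by any pair of libraries. Clusters were named from markers of hepatic stellate cells (HSC), portal fibroblasts (FB) and vascular smooth muscle cells (VSMC), which gave 7 groups of cells with 1667 to 6821 cells each. HSC-like cells were taken from the HSC isolation, and FB-like and VSMC-like cells from the PF isolation. The PF isolation also held 42 and 25 HSC-like cells and the HSC isolation 16 and 4 FB-like cells, too few to be used, so that HSC identity and isolation cannot be told apart in the 10x data. Uninjured VSMC-like cells had a summed VSMC marker level of 32507 CPM, while HSC-like cells reached 581 CPM and FB-like cells 534 CPM. The HSC isolation also held cells that stayed unnamed: 29 uninjured, 834 at 72 h and 705 at 6 weeks. These were left out of the groups, because Clec4g, an endothelial marker of the list used, was among the leading genes of their clusters. All 5 HSC markers were detected in these clusters, which scored higher for HSC than for FB or VSMC. Whether they are stellate cells was not tested, and the HSC-like values do not include them. Markers of hepatocytes, endothelial cells and leucocytes summed to at most 59.7 CPM each in every group. With 1 library per condition there is no replicate in the 10x data. Ratios there are compared with the ratios of all genes, a gene is counted as higher or lower at 1.5-fold, and intervals cover counting error only.

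VSMC-like cells carried the highest level of the nuclear oxidative phosphorylation genes as a share of UMIs. Median depths of uninjured cells were 3217 UMIs (VSMC-like), 4902 UMIs (FB-like) and 6716 UMIs (HSC-like), so shares do not give molecules per cell. The 79 genes summed to 35667 CPM in uninjured VSMC-like cells (95% Poisson interval 35513 to 35822) and to 35847 CPM after 6 weeks of CCl4. The sums in uninjured HSC-like and FB-like cells were 19772 CPM and 19810 CPM. HSC-like cells had 23584 CPM at 72 h and 18330 CPM at 6 weeks, and FB-like cells had 19657 CPM at 6 weeks. In the median VSMC-like cell of uninjured mice the genes took 3.63% of UMIs, with quartiles at 3.09% and 4.11%. The median uninjured HSC-like cell gave 1.97% and the median FB-like cell 1.95%.

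**Figure D1:**
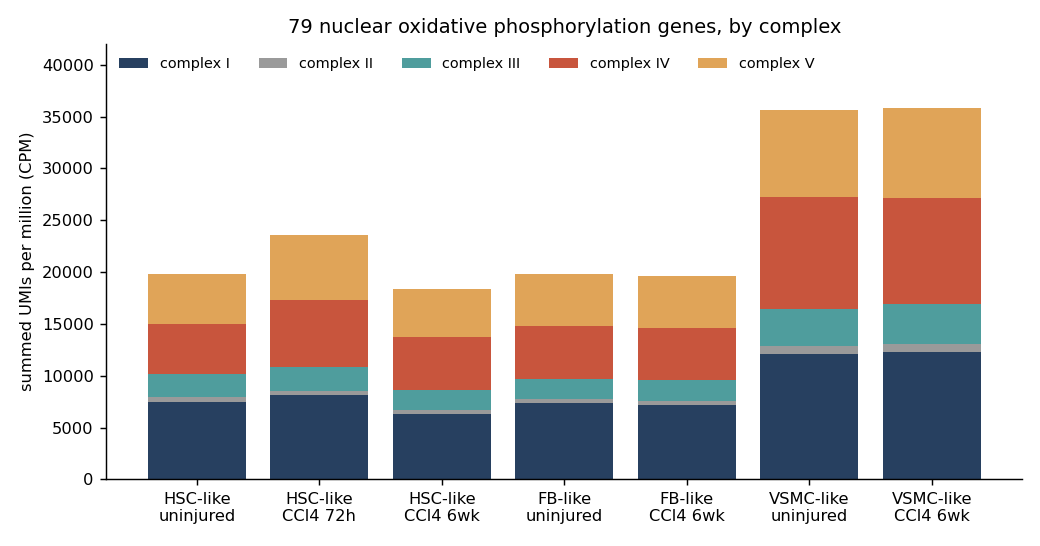
Summed level of the 79 genes in the 7 groups of 10x cells, in CPM, stacked by respiratory complex. The bars of the VSMC-like cells reach 35667 and 35847 CPM, and those of the other groups lie between 18330 and 23584 CPM.

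Of the 79 genes, 41 had their highest level in VSMC-like cells at 6 weeks and 30 in VSMC-like cells of uninjured mice. The lowest level of 40 genes was in HSC-like cells at 6 weeks. All genes had a median ratio of 0.847 there against uninjured HSC-like cells. These counts of highest and lowest levels were not made over all genes and were not repeated under other scalings. Because the 10x kit counts the 3′ end of each molecule, levels can be set beside each other between genes with no correction for length. Cox6c, a small subunit of cytochrome c oxidase, led in uninjured VSMC-like cells with 2127 CPM. Cox6c was also the highest of the genes in uninjured HSC-like cells (928 CPM), whereas Cox4i1, the ubiquitous form of subunit 4, led in FB-like cells (808 CPM). The median gene lay at 379 CPM in uninjured VSMC-like cells, 208 CPM in HSC-like cells and 230 CPM in FB-like cells.

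Ranked by the median level over the 7 groups, complex I was led by Ndufa4, Ndufa2 and Ndufa13, and Ndufs1, the large iron-sulfur subunit that takes part in electron transfer, was lowest with 20.4 to 67.4 CPM. Complex II was led by Sdhb, the iron-sulfur subunit, ahead of the flavoprotein Sdha and the membrane anchor Sdhc, and the other anchor, Sdhd, was lowest. Uqcrh, Uqcrb and Uqcr11 led complex III, where Uqcrc2, a core protein, was lowest. Cox6c, Cox4i1 and Cox8a led complex IV, and Atp5e, Atp5l and Atp5j led complex V.

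Some isoforms known from muscle had few UMIs. Cox6a2, the heart and muscle form of subunit 6a, had no UMI in 6821 uninjured HSC-like cells after filtering. Genes seen in fewer than 3 cells had been left out before counting, so the missing UMIs may come from this filter. The count therefore gives no exact limit on cells with a UMI, and sets no limit on cells expressing the gene. Among VSMC-like cells 0 of 1667 had a UMI of Cox6a2 when uninjured and 6 of 3000 at 6 weeks. Cox6a1, the form of other tissues, reached 500 CPM for HSC-like, 486 CPM for FB-like and 1034 CPM for VSMC-like cells of uninjured mice. Cox7a1, the muscle form of subunit 7a, was detected in 0.960% of uninjured VSMC-like cells, whereas Cox7a2 reached 680 CPM there. Cox8b, a muscle form of subunit 8, had 9.22 CPM in uninjured FB-like cells and 12.4 CPM at 6 weeks, with 24.5 and 27.9 CPM in 1 FB-like cluster.

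The comparison of cell types in uninjured liver gave the broadest difference. In VSMC-like against FB-like cells, 62 of 78 genes were higher by 1.5-fold and 0 were lower, where 17.3% of all genes tested were higher and 26.9% lower. The median ratio of the 78 genes was 1.70, against 0.930 over all genes. All 8 genes of complex III were among the 62, with 29 of 38 genes of complex I, 3 of 4 of complex II, 11 of 13 of complex IV and 11 of 15 of complex V. Besides the isoforms described later, the highest ratios were those of Cox6c (3.32), Sdhc (3.16) and Atp5b, the catalytic beta subunit of ATP synthase (2.58). Atp5g1, which encodes a copy of the membrane c subunit, had the lowest ratio (0.908), followed by Ndufb4 (0.949).

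HSC-like cells were lower than VSMC-like cells to a similar extent. Of 78 genes, 54 were lower by 1.5-fold and 0 were higher, with 20.3% of all genes lower and 30.6% higher, and the median ratio was 0.598 (all genes 1.13). Cox8a was at 0.343 and Uqcrh, the hinge protein of complex III, at 0.355. At the other end, Uqcrb, Ndufb4, Ndufs4 and Sdha had ratios between 0.976 and 1.08. Between HSC-like and FB-like cells, 3 genes were higher (Uqcrb, Cox4i2 and Sdha) and 5 were lower (Cox6b2, Ndufv3, Cox7a2l, Ndufb10 and Uqcrh), with 23.1% of all genes higher and 19.9% lower. The median ratio of the genes was 1.05, close to the 1.06 of all genes.

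**Figure D2:**
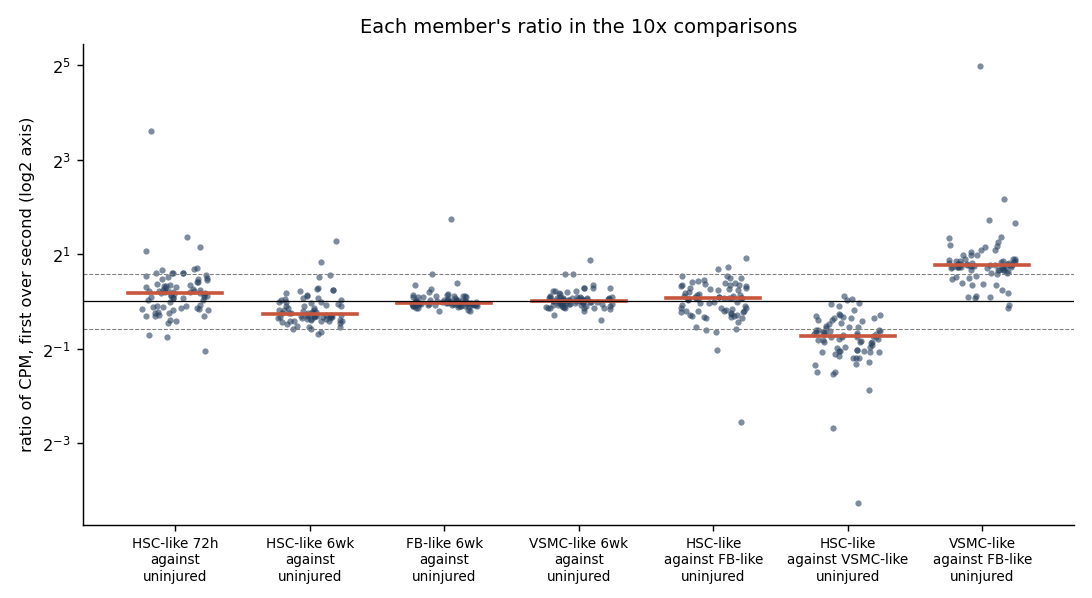
Ratio of CPM for each nuclear oxidative phosphorylation gene (points) in the 7 comparisons of 10x cells, on a log2 axis, with the median as a red line and dashed lines at 1.5-fold either way. Only the comparisons of VSMC-like with other cells move the median past 1.5-fold, to 1.70 against FB-like cells and to 0.598 for HSC-like against VSMC-like cells.

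The Smart-seq2 plates measured the same contrast in separate portions of cells. Reads were summed per mouse portion of a plate and cell type, which gave 31 sums. Each plate held as many portions as its label gives mice, but the labels do not say whether plates share mice, so the p-values cover the spread between portions. In 6 uninjured portions of VSMC-like cells the summed level ran from 14402 RPM (reads-per-million) over a median of 18132 RPM to 18363 RPM. The 6 uninjured portions of FB-like cells ran from 6016 RPM over 8410 RPM to 11452 RPM. The VSMC-like portions all lay above the FB-like portions.

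By edgeR's quasi-likelihood test, 61 of 78 genes were higher in VSMC-like than in FB-like cells with an adjusted p below 0.05, and 0 were lower, against 9.78% of all genes higher and 10.7% lower. The median log2 fold change was 0.80. Sdhc rose by 1.77 (SE 0.16, adjusted p = 1.25e-08), Cox6c by 1.55 (SE 0.19) and Cox8a by 1.52 (SE 0.16) on the log2 scale. Sdhc had 332 to 454 RPM in the VSMC-like portions and 58.1 to 139 RPM in the FB-like portions, with no overlap. Of 77 genes tested on both platforms, 75 had the same direction. The genes called in both numbered 55, which was 90.2% of the 61 from 10x and 90.2% of the 61 from Smart-seq2. Neither platform called Atp5e, Ndufs3, Ndufb5, Ndufc2, Ndufv3, Cox6b2, Ndufs4, Cox7a2l, Ndufb4 or Atp5g1. Some genes had few reads on the plates, among them Atp5g2 (0.118 to 0.454 RPM in VSMC-like portions) and Atp5l (1.43 to 4.98 RPM). Near-identical copies of these genes elsewhere in the genome can take up reads, so their plate values are uncertain. Of the genes called on neither platform, Atp5g1 (3.89 to 7.48 RPM) and Ndufb4 (3.73 to 9.49 RPM) also had few reads in uninjured VSMC-like portions. Ndufs5 did not pass the filter on low counts and was not tested on the plates.

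**Figure D3:**
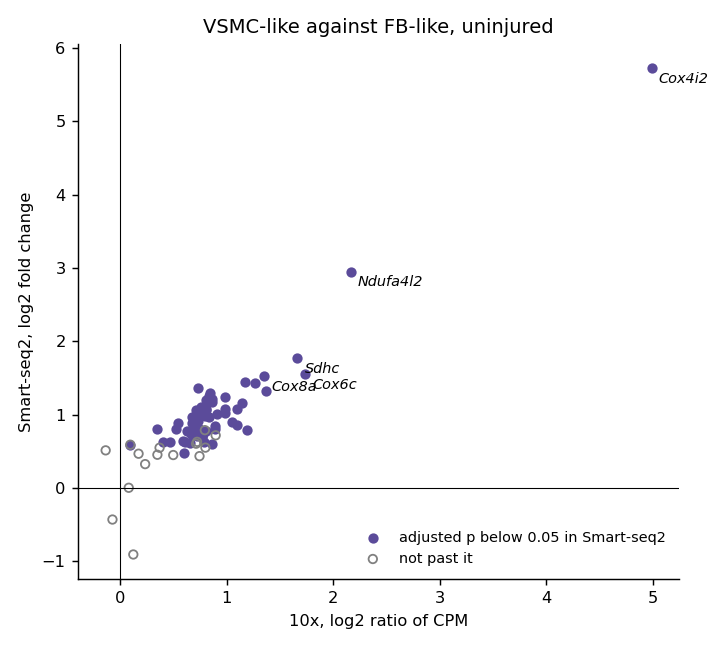
Log2 ratio of VSMC-like over FB-like cells of uninjured liver for each gene, in 10x (horizontal axis) and Smart-seq2 (vertical axis). Filled points have an adjusted p below 0.05 in Smart-seq2; of 77 genes, 75 lie on the same side of 0 on both axes, and Cox4i2 and Ndufa4l2 stand farthest out.

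HSC-like cells gave 2 portions on the plates, both of the HSC isolation on plate 6, with summed levels of 5890 and 6237 RPM. Cell type and isolation cannot be told apart here either. With the plate term, these comparisons rest on the only other portion of plate 6, uninjured 1. It held 19 FB-like and 34 VSMC-like wells, and its VSMC-like sum of 14402 RPM was the lowest of the uninjured portions. Against VSMC-like cells, 33 genes were lower and 0 higher (5.33% of all genes lower and 5.8% higher), and the median log2 fold change was -0.95. Cox8a fell by 1.95 (SE 0.29), Uqcrh by 1.64 (SE 0.26), Cox6c by 1.53 (SE 0.33) and Ndufb2 by 1.47 (SE 0.38) on the log2 scale. The count was 11 when the uninjured 2 portion of plate 6 was left out, 16 without the filter on low counts and 59 without the plate term. Against FB-like cells, only Atp5sl passed (log2 fold change 2.83, SE 0.82, adjusted p = 0.0361), against 3.27% of all genes higher and 3.24% lower. Atp5sl was placed in complex V by its symbol alone. It had 23.9 and 20.1 RPM in the HSC-like portions and 2.50 RPM in the FB-like cells of plate 6. Uninjured FB-like portions of the other plates had 5.11 to 20.7 RPM of it, which overlapped the HSC-like values. Without the filter on low counts, or with sums of at least 5 wells, no gene passed.

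Other mitochondrial gene lists were set beside these genes for VSMC-like against FB-like cells of uninjured mice. Over all genes, 17.3% were higher and 26.9% lower in 10x, and 9.78% and 10.7% in Smart-seq2. All 13 mitochondrially encoded subunits were higher by 1.5-fold in VSMC-like than in FB-like cells of the 10x data, with a median ratio of 2.16. Of the citric acid cycle genes, 8 of 13 were higher in 10x and 11 of 13 passed in Smart-seq2. Of a list of transport genes (Cycs, the electron carrier cytochrome c, with carriers such as Slc25a4, the Vdac channels and Atpif1), 7 of 8 were higher in 10x and 6 of 8 in Smart-seq2. The assembly factors did not move as a block in 10x, with 4 of 35 higher and 4 lower, and 7 of 36 passed as higher in Smart-seq2. Mitochondrial ribosomal proteins were higher for 5 and lower for 3 of 74 genes in 10x, and higher for 11 of 77 in Smart-seq2, where 0 were lower. Genes of the cytosolic ribosome were lower for 11 of 82 in 10x, a smaller share than that of all genes. In Smart-seq2 they were lower for 18 of 83, a larger share. Of the regulators of mitochondrial genes, 3 of 10 were higher in 10x and 1 of 12 in Smart-seq2, with 1 lower there. Hypoxia response genes were higher for 4 and lower for 4 of 14 in 10x, and higher for 7 and lower for 3 of 17 in Smart-seq2.

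Ndufa4l2 and Cox4i2 had patterns apart from the other genes. Ndufa4l2 (GRCm38, chr10:127514967-127517154, plus strand) had 117 CPM in uninjured HSC-like cells, 71.7 CPM at 72 h and 110 CPM at 6 weeks. The unnamed clusters of the same libraries had 322 CPM at 72 h and 340 CPM at 6 weeks, and over the whole libraries of the HSC isolation the levels were 118, 96.2 and 140 CPM, so that the 6-week ratio turned from 0.935 in HSC-like cells to 1.18. FB-like cells had 95.9 CPM uninjured and 115 CPM at 6 weeks. VSMC-like cells had 430 CPM uninjured (413 to 447) and 786 CPM at 6 weeks (771 to 801). The order therefore ran from HSC-like cells at 72 h to VSMC-like cells at 6 weeks, and among neighbours in it the intervals of 6-week HSC-like and 6-week FB-like cells overlapped, as did those of 6-week FB-like and uninjured HSC-like cells.

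Cox4i2 (GRCm38, chr2:152754173-152765037, plus strand) was more restricted. It had 22.1, 30.6 and 17.7 CPM in HSC-like cells of uninjured, 72 h and 6-week mice, and 13.4 CPM in uninjured FB-like cells. FB-like cells at 6 weeks had 45.0 CPM, and VSMC-like cells had 425 CPM uninjured and 633 CPM at 6 weeks. No neighbours in this order had overlapping intervals. The unnamed clusters of the HSC isolation had 55.6 CPM of Cox4i2 at 72 h and 53.3 CPM at 6 weeks. Over the whole libraries of that isolation the levels were 22.5, 32.9 and 22.3 CPM. The lower 6-week level of HSC-like cells was therefore not seen over whole libraries. After thinning each cell to 2000 UMIs, Cox4i2 was seen in 50.7% of uninjured VSMC-like cells, 4.04% of HSC-like cells and 2.29% of FB-like cells. Without thinning these shares were 64.0%, 12.9% and 5.59%, at median depths of 3217, 6716 and 4902 UMIs.

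The ubiquitous partners varied less. Ndufa4 ranged from 350 to 660 CPM over the 7 groups and Cox4i1 from 644 to 1345 CPM. Of the UMIs of Ndufa4l2 and Ndufa4 together, Ndufa4l2 made up 41.4% in uninjured VSMC-like cells and 57.9% at 6 weeks, against 20.4% in uninjured HSC-like cells, 9.79% at 72 h and 21.4% in uninjured FB-like cells. Cox4i2 made up 24.02% of the UMIs of its pair with Cox4i1 in uninjured VSMC-like cells and 34.1% at 6 weeks, and 1.63% to 5.49% in the HSC-like and FB-like groups.

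**Figure D4:**
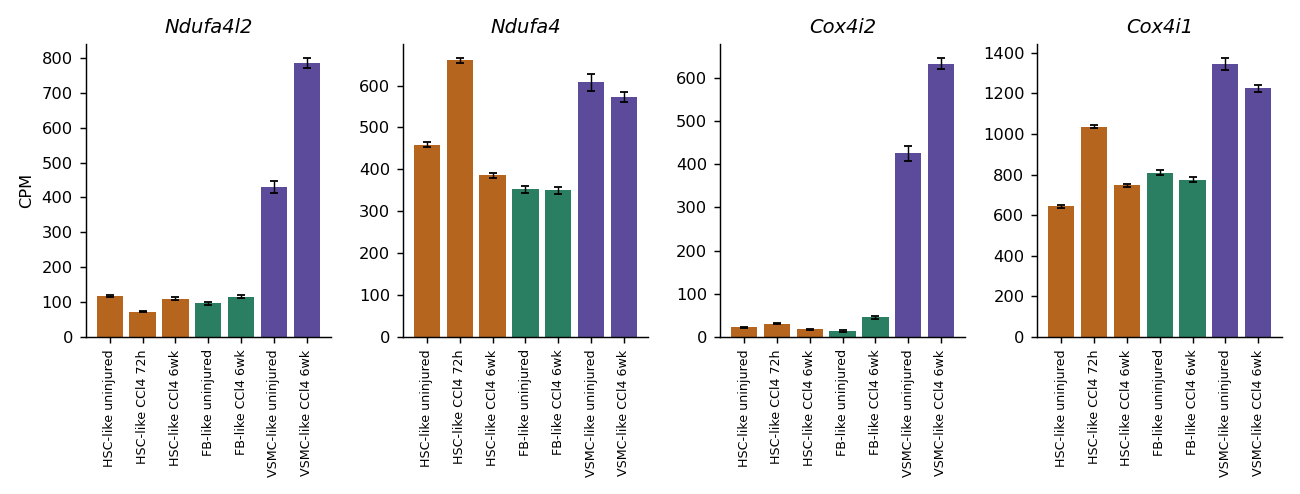
Levels of Ndufa4l2, Ndufa4, Cox4i2 and Cox4i1 in the 7 groups of 10x cells, in CPM, with exact 95% Poisson intervals as error bars; each panel has its own axis from 0. Ndufa4l2 and Cox4i2 are highest in the VSMC-like groups (430 and 786 CPM, 425 and 633 CPM), while Ndufa4 stays between 350 and 660 CPM.

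On the plates, Cox4i2 had 133 to 266 RPM in the 6 uninjured VSMC-like portions, around a median of 186 RPM. The FB-like portions had 1.04 to 10.6 RPM, and the HSC-like portions had 2.92 and 6.05 RPM. The VSMC-like values stood clear of all others, with a log2 fold change of 5.72 over FB-like cells (SE 0.60, adjusted p = 1.22e-07). Ndufa4l2 had 80.5 to 284 RPM in VSMC-like, 13.6 to 34.6 RPM in FB-like and 18.5 and 29.6 RPM in HSC-like portions. Its log2 fold change was 2.95 over FB-like cells (SE 0.34, adjusted p = 5.28e-07), and -1.79 for HSC-like against VSMC-like cells (SE 0.59, adjusted p = 0.0516), which missed the threshold.

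Within VSMC-like cells of the 10x data, Ndufa4l2 was uneven. Of its 4 clusters, the 2 large ones differed in the pericyte gene Higd1b. The first (229 CPM of Higd1b uninjured, 575 CPM at 6 weeks) had 810 CPM of Ndufa4l2 uninjured and 1148 CPM at 6 weeks. The other, with 946 uninjured cells and 24.8 CPM of Higd1b, had 255 CPM, and 294 CPM at 6 weeks. A cluster of 60 uninjured and 70 6-week cells had the highest Higd1b when uninjured (667 CPM), with 1577 CPM of Ndufa4l2 uninjured and 959 CPM at 6 weeks. Its uninjured cells had 32.1 CPM of Pln and 590 CPM of Myh11, below the 1384 and 1569 CPM of the first large cluster. Whether they are smooth muscle cells or pericytes was not tested. The last, of 127 and 162 cells, had 144 and 284 CPM of Ndufa4l2. Its median depth when uninjured was 7093 UMIs, against 3041 and 3252.5 UMIs in the large clusters. The first large cluster held 534 of 1667 VSMC-like cells in the uninjured library and 1809 of 3000 at 6 weeks. The sum of the 79 genes was 38596 and 37083 CPM in the large uninjured clusters, and 25903 and 27345 CPM in the small ones of 60 and 127 cells. Cox4i2 was uneven too, with 772 and 308 CPM in the large uninjured clusters and 888 and 319 CPM at 6 weeks. The small clusters of 60 and 127 uninjured cells had 763 and 143 CPM of it, and 473 and 247 CPM at 6 weeks.

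HSC-like cells were also split at the median of a zonation score, built from the study's portal and central gene lists without Ndufa4l2, which the study lists as portal. Ndufa4l2 had 177 CPM in the portal-scored and 55.5 CPM in the central-scored uninjured cells, a ratio of 3.19. The ratio was 1.92 at 72 h and 2.94 at 6 weeks. Cox4i2 was also higher in the portal-scored cells, with 33.0 and 10.9 CPM in the uninjured library. It had 37.0 and 24.2 CPM at 72 h, and 24.2 and 11.1 CPM at 6 weeks. In each library 2 of the genes were higher by 1.5-fold in portal-scored cells and 0 lower, with no share of all genes to compare. Since the study chose its list on these libraries, this is a description. The sum of all 79 genes differed by ratios of 1.01, 1.04 and 1.02 between the same cells. In each library 394 to 699 cells lay within 0.1 SD of the division.

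The genes whose pattern over the 7 groups was most like that of Ndufa4l2, by Pearson's r of log2(CPM + 1) among 4310 genes, were Dtx3 (0.991), Pnpla2 (0.986), Rab3a, Plekhh3 and Phyh. For Cox4i2 they were Notch3 (0.996), Id1 (0.996), Myl9, Tpm2 and 6330403A02Rik. The r between Ndufa4l2 and Cox4i2 was 0.945. With 7 groups from 5 libraries and a large step at VSMC-like cells, these values describe the step.

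In HSC-like cells 72 h after CCl4, 12 of 79 genes were higher by 1.5-fold and 3 lower. Over all genes 14.1% were higher and 27.3% lower, so the share of higher genes was near that of all genes. The median ratio was 1.14, whereas the median over all genes was 0.857, and the summed level had a ratio of 1.19. Higher were 5 of 16 genes counted as complex V and 4 of 13 of complex IV. Of complex III and complex I, 1 of 8 and 2 of 38 were higher. Cox6b2, the testis form of subunit 6b, went from 2.95 to 35.8 CPM (ratio 12.1, interval 10.2 to 14.4) and was seen in 28.0% of cells at 72 h and 1.83% of uninjured cells, at median depths of 11657 and 6716 UMIs. Thinned to 2000 UMIs per cell the shares were 6.41% and 0.507%, and uninjured FB-like cells had 3.20%. Its partner Cox6b1 had 467 and 535 CPM. Cox7a2l, a factor of respiratory supercomplexes, went from 271 to 703 CPM, Atp5g2 from 259 to 575 CPM and Uqcrh from 301 to 632 CPM. The 3 lower genes were Sdha (163 to 79.3 CPM), Ndufs1 (34.5 to 20.4 CPM) and Ndufa4l2. The ratio of Ndufa4l2 was 0.611 in HSC-like cells and 0.815 over the whole library, and a cluster of 831 unnamed cells there had 322 CPM. Of the mitochondrially encoded subunits, 6 of 12 were higher at 72 h and 0 lower (median ratio 1.42), and of the citric acid cycle genes 0 of 13 were higher and 1 lower (median ratio 0.796).

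The 72 h library also differed in its general make-up. The summed level of the cytosolic ribosome was 94759 CPM uninjured, 230422 CPM at 72 h and 177075 CPM at 6 weeks. Cell division genes had 40.9, 688 and 56.5 CPM, and dissociation stress genes 10731, 5361 and 9937 CPM. With ribosomal protein UMIs left out of the total, 22 genes were higher and 1 was lower at 72 h. With TMM scaling these counts were 19 and 1, with median ratios of 1.29 for the genes and 0.979 for all genes. Shares of all genes past 1.5-fold are not given for these scalings. The part of these shifts in the ratios was not tested beyond these recomputations. Dividing cells had 1.08 times the summed level of the other cells at 72 h (24958 and 23096 CPM).

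At 6 weeks, HSC-like cells had 2 genes higher (Cox7a2l, 2.42, and Uqcrh, 1.79) and 2 lower (Sdha, 0.624, and Ndufs1, 0.637) of 78, with 6.49% of all genes higher and 13.7% lower. The median ratio was 0.831, close to the 0.847 of all genes. A ratio above 1 was found for 17 of 78 genes (21.8%), against 25.4% of all genes. With TMM scaling, which moved the median of all genes from 0.847 to 0.986, 33 of 79 genes had a ratio above 1. With TMM scaling, or with ribosomal protein UMIs left out, 5 genes were higher and 0 lower, so that both lower calls ended. The summed ratio turned from 0.927 to 1.08 and 1.02. Shares of all genes past 1.5-fold are not given for these scalings. Set side by side, 36 of 78 genes were above 1 at 72 h and below 1 at 6 weeks, and 0 went the other way. Above 1 at both times were 17 genes, and 25 were below 1 at both. Over all genes, 36.6% had a ratio above 1 at 72 h and 25.4% at 6 weeks. These counts are without TMM scaling, and the times were not crossed over all genes. Both times share the uninjured library.

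FB-like and VSMC-like cells showed few differences at 6 weeks. In FB-like cells, 2 of 78 genes were higher (Cox4i2, 3.35, and Uqcrb, 1.501) and 0 lower, with 5.23% of all genes higher and 2.07% lower. The VSMC markers in the same FB-like cells went from 534 to 1403 CPM and the library held 3000 VSMC-like cells against 1667, and the part of this in the Cox4i2 ratio was not tested. In VSMC-like cells, Ndufa4l2 alone of 79 genes was higher (1.83, interval 1.75 to 1.91) and 0 were lower, with 7.8% of all genes higher and 2.68% lower. The same clusters held the cells in different proportions in each library: the first large cluster held 534 of 1667 and then 1809 of 3000 cells. Within the large clusters Ndufa4l2 went from 810 to 1148 CPM and from 255 to 294 CPM, each under 1.5-fold. In the small clusters it went from 144 to 284 CPM and from 1577 to 959 CPM. The part of the changed proportions in the ratio was not tested. Uqcrb (1.497, just under the fold) and Cox4i2 (1.49) came next, and Cox6c was lowest (0.763). The ratio of Uqcrb was thus similar in both cell types. Over whole libraries Uqcrb had 342 CPM in the uninjured PF isolation, 588 CPM in the 6-week PF isolation and 553 CPM in the uninjured HSC isolation. The uninjured PF library also enters the comparisons of uninjured HSC-like cells with the other types. The part of a library-wide shift in the Uqcrb ratios was not tested. Within the large clusters Cox4i2 went from 772 to 888 CPM and from 308 to 319 CPM. In the small clusters it went from 143 to 247 CPM and from 763 to 473 CPM.

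On the plates, no gene passed the test in FB-like or VSMC-like cells after BDL or CCl4. By edgeR's quasi-likelihood test 0 of 78 genes were called in each of the 4 comparisons, and 12, 1, 12 and 0 had an unadjusted p below 0.05 (BDL and CCl4 in FB-like cells, then BDL and CCl4 in VSMC-like cells). DESeq2 called 1 gene after BDL in FB-like cells, 4 after BDL in VSMC-like cells and 0 after CCl4. No share of all genes is given for DESeq2. By edgeR, few genes of any kind were called. In FB-like cells 0.198% were higher and 0.102% lower after BDL, and 0.18% and 0.024% after CCl4. In VSMC-like cells the shares were 0.0839% and 0.018% after BDL and 0% each way after CCl4. The summed level ran from 7654 to 9497 RPM in 4 BDL portions and from 8064 to 9616 RPM in 4 CCl4 portions of FB-like cells, within the range of the uninjured portions. In VSMC-like cells it ran from 15312 to 19212 RPM in 5 BDL portions and from 16583 to 20667 RPM in 4 CCl4 portions, which overlapped the uninjured portions.

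Ndufa4l2 had a log2 fold change of 0.22 after CCl4 in VSMC-like portions (interval -0.65 to 1.09) and 0.54 after BDL (interval -0.27 to 1.34). The 10x ratio of 1.83 lies inside the first interval. Its VSMC-like values were 80.5 to 284 RPM uninjured, 156 to 316 RPM after BDL and 183 to 426 RPM after CCl4, so the groups overlapped. Cox4i2 in FB-like portions had a log2 fold change of -1.06 after CCl4 (interval -2.49 to 0.37), opposite in direction to the 10x ratio, and its values of 0.0927 to 4.08 RPM overlapped the 1.04 to 10.6 RPM of uninjured portions. Uqcrb had 25.7 to 44.9 RPM in FB-like portions after CCl4, within the 22.5 to 78.4 RPM of uninjured portions.

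**Figure D5:**
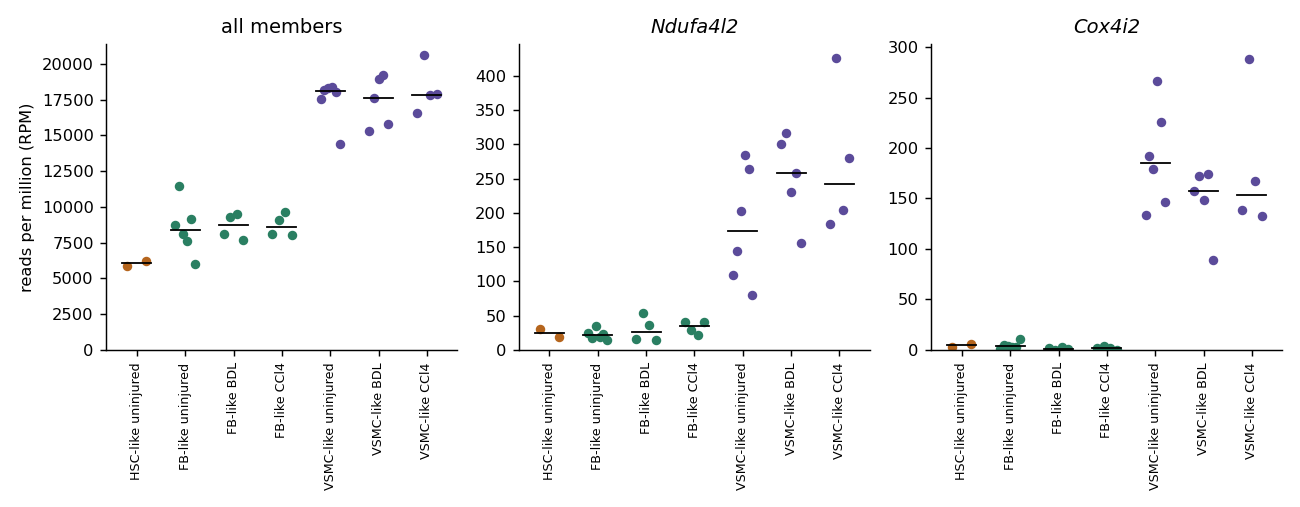
RPM in each mouse portion of the Smart-seq2 plates for the sum of the genes, Ndufa4l2 and Cox4i2, by cell type and condition, with the median of each group as a black line. The VSMC-like portions lie above all FB-like and HSC-like portions in each panel, and the conditions overlap within a cell type.

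Because many of the genes moved together between cell types, their promoters were searched for motifs of factors known to act on respiratory genes. Promoters of 300 bases (250 before and 50 after the start) were found for 65 of the 79 genes in RefSeq (GRCm38.p6). On either strand, the NRF1 core GCGCATGCG was in 8 of 65 (12.3%, against 1.95% of all 27025 genes) and the YY1 motif AAGATGGC in 10 (15.4% against 3.19%). The GABP/ETS motif CCGGAAGT was in 5 (7.69% against 4.31%) and the ESRRA motif CAAGGTCA in 4 (6.15% against 1.76%). The hypoxia response core, ACGTG or GCGTG, was in 41 (63.1% against 46.7%), and the RBPJ motif GTGGGAA in 4 (6.15% against 7.25%). Of the 11 YY1 matches, 9 lay 22 to 38 bases after the start. The matches describe letters and not binding.

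Windows with NRF1 or GABP/ETS matches are shown for Cox6a1, Uqcr11 and the ATP synthase genes Atp5k and Atp5h. All of these genes were called higher in VSMC-like than in FB-like cells on both platforms. So were Uqcrc1, with an NRF1 match, and Cox8a and Uqcrh, with GABP/ETS matches. Of the other genes with an NRF1 match, Atp5g2, Atp5l and Ndufa11 were called in 10x only and Ndufa8 in Smart-seq2 only. Ndufs3, with a GABP/ETS match, was called on neither. Capitals mark the matches, which run together where both strands match, and the bases are read 5′ to 3′ along the gene, from chr5:115349091-115349140, chr5:108434420-108434469, chr10:80406798-80406907 and chr11:115419931-115419978, all on the minus strand.
Cox6a1: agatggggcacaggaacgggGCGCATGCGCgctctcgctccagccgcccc
Atp5k: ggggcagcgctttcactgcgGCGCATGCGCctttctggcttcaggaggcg
Uqcr11: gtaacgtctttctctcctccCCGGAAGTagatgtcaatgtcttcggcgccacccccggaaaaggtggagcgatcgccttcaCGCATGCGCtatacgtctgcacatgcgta
Atp5h: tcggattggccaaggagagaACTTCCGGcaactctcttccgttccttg
With the start at 0, the NRF1 matches began at -162 in Cox6a1, -50 in Atp5k and -5 in Uqcr11, and the GABP/ETS matches at -66 in Uqcr11 and -39 in Atp5h.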

How the data were processed

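Cells of 5 10x libraries and 6 Smart-seq2 plates were analysed. The authors aligned 10x reads to mm10 with Cell Ranger 2.1.0 and deposited raw UMI counts per gene and cell; for Smart-seq2 the authors mapped reads with STAR and deposited raw read counts per gene and well. The gene set and lists were chosen with earlier results of these data known. Genes in fewer than 3 cells, and cells with fewer than 300 genes or over 30% mitochondrial UMIs, were left out. Clusters (Leiden) were named from marker lists, and called doublets were left out only as an alternative. UMIs were summed by group as CPM. In 10x comparisons, genes with 10 CPM in either group were tested at 1.5-fold, with a floor of 3 counts. Of 2292 wells 2065 were kept, with a median of 445569 reads. Smart-seq2 reads were summed per portion and type (at least 10 wells) and fitted with type-by-condition and plate terms in edgeR 4.0.16 (quasi-likelihood, TMM, Benjamini-Hochberg), with 16683 genes and 19 residual degrees of freedom. DESeq2 1.42.0 was an alternative. Genes named were the isoforms, the 5 highest and 5 lowest ratios per 10x comparison, the 3 highest and the lowest of each complex, and the 5 largest significant changes each way per Smart-seq2 comparison. The edgeR fit was tested on simulated data. Alternatives with ribosomal UMIs left out or whole libraries were chosen after seeing the data.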

Additional observations from a re-analysis of the deposited data

Results flagged for a closer look

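Dixon's test was run 30 times on groups of Smart-seq2 portions, for Ndufa4l2, Cox4i2, Ndufa4, Cox4i1 and the summed level. About 1 in 20 such tests is expected to mark a value by chance, but these tests share portions and are not independent. The tests marked 4 values as far from the others of their group. The uninjured 1 portion of plate 6 gave 3 of them. Its VSMC-like cells (34 wells) had the lowest summed level, 14402 RPM against 17554 RPM in the next portion, and the lowest Cox4i1, 485 RPM against 690 RPM. Its FB-like cells (19 wells) had the highest Cox4i2, 10.6 RPM against 4.29 RPM. The CCl4 1 portion of plate 5 had the highest Ndufa4 in FB-like cells, 161 RPM against 122 RPM.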

How the results depend on the processing

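The higher level in VSMC-like cells kept its direction under every alternative run. The summed ratio of VSMC-like over FB-like cells was 1.85 with mitochondrial UMIs left out of the total, 1.95 with TMM factors, 1.87 without called doublets and cells with non-mesenchymal markers, 1.84 as a mean over single cells and 1.72 with ribosomal protein UMIs left out. That of HSC-like over VSMC-like cells was 0.539, 0.519, 0.533, 0.544 and 0.533 in the same order. The injury ratios of the HSC-like cells depended on the scaling. At 72 h the summed ratio was 1.20 without mitochondrial UMIs, 1.35 with TMM, 1.18 over single cells and 1.40 without ribosomal UMIs, with 19 genes higher and 1 lower under TMM and 22 and 1 without ribosomal UMIs. At 6 weeks it turned from below to above 1, at 1.08 with TMM and 1.02 without ribosomal UMIs, with 5 genes higher and 0 lower under each, and was 0.944 over the whole library; with a minimum of 50 CPM 1 gene was lower. In FB-like cells at 6 weeks the ratio was 0.981 with TMM and 0.999 over single cells, and 1 gene was higher with TMM, without doublets, without ribosomal UMIs or at 50 CPM. In VSMC-like cells at 6 weeks it was 0.966 with TMM, 0.988 without doublets and 0.981 over single cells, and 2 genes were higher without mitochondrial UMIs or with cells below 10% mitochondrial UMIs. For HSC-like over FB-like cells it was 1.01 with TMM, 1.00 over single cells (1.003) and 0.916 without ribosomal UMIs. With Sdhaf genes kept, 1 gene was higher in HSC-like than VSMC-like cells and 1 lower in VSMC-like than FB-like cells. Leaving out ribosomal UMIs and using whole libraries were chosen after seeing the data. Counts of genes under these alternatives have no share of all genes beside them.

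On the plates, DESeq2 called 1 gene lower after BDL in FB-like cells, 1 higher and 3 lower after BDL in VSMC-like cells, 3 lower in HSC-like than FB-like cells, and 1 higher and 51 lower in HSC-like than VSMC-like cells. Size factors of DESeq2 in edgeR called 1 lower in HSC-like than FB-like cells. Without the filter on low counts the HSC-like counts were 0 higher against FB-like and 16 lower against VSMC-like cells. Without the plate term 7 were lower against FB-like and 59 against VSMC-like cells, and the log2 fold change of Cox4i2 against FB-like cells turned to 0.25 (edgeR, adjusted p = 0.921). With sums of at least 5 wells 0 were higher against FB-like cells. The HSC-like comparisons could not be run without the uninjured 1 portion of plate 6, so leaving out portions gave 16 runs for them. Leaving out 1 portion at a time gave 53 to 62 genes higher in VSMC-like than FB-like cells, 11 to 36 lower in HSC-like than VSMC-like cells, 0 to 1 higher and 0 to 1 lower in HSC-like than FB-like cells, and 0 after injury. The sign of some changes after injury that did not pass the test turned, over ranges of -0.00056 to 0.39 (Ndufa4l2, CCl4 in FB-like cells), -0.026 to 0.40 (Ndufa4l2, CCl4 in VSMC-like cells), -0.69 to 0.40 (Cox4i2, BDL in VSMC-like cells) and -0.62 to 0.64 (Cox4i2, CCl4 in VSMC-like cells). With the mouse portion as a replicate block in place of the plate, 60 genes were higher in VSMC-like than FB-like cells and 0 lower. The block was fitted for that comparison alone. The deviations of both cell types of a portion correlated at 0.012 to 0.070. The cause of these changes was not tested. Shares of all genes are not given for the counts of these alternative fits.

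The 10x data have 1 library per condition, so differences between conditions have no replicate check there. HSC-like cells rest on 2 portions on the plates, and their comparisons there on 1 further portion of the same plate. Depth limits low isoforms such as Cox6a2.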
